A study of Mus with 51 samples.

Results

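The comparison described here follows T cells that were offered an agonist peptide but were sorted as CD69-low, and asks how their messenger RNA differed between 24 h and 1 h. Its members were chosen by label alone. They are the 3 libraries of the sorting phenotype MCC CD69-lo at 24 h and the 3 at 1 h, 6 of the 51 libraries of the series. MCC is the moth cytochrome c peptide, the agonist of the 5C.C7 T cell receptor, and CD69 is a surface protein that T cells display soon after their receptor is engaged. All cells came from lymph nodes of 5C.C7 T cell receptor transgenic mice (Tcra5CC7, Tcrb5CC7) on a B10.A background that lacks Rag2 and carries H2-T18a, so every group shares the transgenic receptor, the Rag2 deletion and that allele. The groups set beside the CD69-low cells are NP, kept without peptide (3 libraries at 1 h and 3 at 24 h), MCC CD69-hi, the other gate of the same peptide (3 and 3), and MCC CD69-lo at 6 h (2 libraries). The labels give no age or sex. They do not say how the peptide was presented, how many cells were sorted, or whether replicates came from separate animals. The p-values rest on a spread between replicate libraries that was estimated over all 18 groups of the series. That spread may in part be technical.

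A T cell that meets its agonist ligand signals through calcium and NFAT, through the MAP kinase ERK, and through NF-kB, and within an hour it transcribes immediate early genes such as those of the Nr4a, Egr and Fos families. Sustained signalling is followed by growth, in which ribosome assembly, nutrient uptake and lipid synthesis are raised and the cell divides. Interferons are cytokines that act on most nucleated cells: type I interferon and interferon gamma bind separate receptors, and both raise large sets of antiviral and antigen presentation genes. In the RNA of a sorted population, fewer cells of a type and less RNA per cell cannot be told apart.

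The 1 h CD69-low libraries held 4404348, 6106519 and 5005664 counts over genes (replicates 1 to 3), and the 24 h libraries held 941304, 2870776 and 1728809. All 15 T cell markers were detected in each of the 6 libraries, and their summed RNA was 15175 to 16812 CPM (counts scaled to a common library total) at 1 h and 13181 to 14420 at 24 h. The transcript of the gate's own protein did not follow the name of the gate at 1 h: Cd69 stood at 824 to 1595 CPM in the CD69-low libraries, above the NP libraries at 121 to 330 and beside a mean of 1680 CPM in the CD69-hi libraries. Replicate 3 stood apart at both times. It had no Xist count, while the other CD69-low libraries had 142 to 807 CPM, and Gprin1 was at 0 against 302 to 442 CPM. Title suffixes look like plate wells, and the 3 libraries of the last such column had Gprin1 at 0 to 0.905 CPM. The 48 others of the series had 11.6 to 1297 CPM. Both replicate 3 libraries are in that column and no NP or MCC CD69-hi library is, so the tests of a difference are uneven in this respect. Replicate 3 at 1 h also held the most B cell marker RNA, 4579 CPM against 1326 and 1461, and replicate 3 at 24 h had 67 genes that were at least 10 times higher than in any of the other 5 libraries. Replicate 1 at 24 h differed in other genes: it had the highest Xist level, and of the Y-linked genes Kdm5d was at 0 CPM against 25.4 to 83.3 in the other 5 libraries, Eif2s3y at 3.19 against 53.4 to 123 and Ddx3y at 18.1 against 139 to 456. Uty, also Y-linked, was not low there: it stood at 17.0 CPM, within the 15.7 to 42.0 CPM of the other 5 libraries. Results are also given without both replicate 3 libraries where that matters.

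Between 1 h and 24 h most early receptor response genes fell in the CD69-low cells (24 of 33, with 2 higher), and most type I interferon response genes rose (34 of 40). Of 17211 genes tested, 4875 passed a false discovery rate of 0.05 in edgeR's quasi-likelihood test (28.3%), 2292 of them higher at 24 h (13.3%) and 2583 lower (15%). More than 2-fold differences were found for 1672 higher genes (9.71%) and 1223 lower genes (7.11%), and the 3 libraries of each time did not overlap for 1618 called higher genes (9.40%) and 2392 called lower genes (13.9%). The split depended on the scaling. TMM factors gave 47.0% of calls as higher, while relative log expression (RLE) size factors moved the median of all genes from a log2 change of 0.06 to 0.23 and gave 61.4%. Without both replicate 3 libraries 3693 genes were called, 1573 higher and 2120 lower, and with the 6 libraries thinned to the 941304 counts of the smallest the number was 3127. With only these 6 libraries in the fit 2868 were called.

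The interferon response genes rose together. In the list of 40 type I interferon response genes 34 rose and none fell, with a median log2 change of 1.86 and a range of 0.22 to 3.75, beside 0.06 over all genes. In the interferon gamma list, which has no member in common with the first, 23 of 27 rose and none fell, with a median of 2.01. The libraries of the 2 times did not overlap for 33 and 22 of these genes. Leaving out any 1 library left 30 to 34 and 22 to 24 called, and without both replicate 3 libraries 32 and 22 rose.

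Guanylate binding proteins, the GTPases that attack membranes around intracellular microbes, lie in a cluster on mouse chromosome 3 (Gbp5 at 142496934 to 142522344, Gbp3 at 142560016 to 142573213 and Gbp2 at 142620663 to 142638008 in the RefSeq annotation of GRCm38.p6, the assembly that mm10 is built on). Gbp2 stood at 229, 103 and 86.1 CPM in the 1 h libraries, at 1115 and 893 in the 6 h libraries, and at 1750, 2142 and 1669 in the 24 h libraries, a log2 change from 1 h to 24 h of 3.74 ± 0.60 (SE, n = 3 against 3, edgeR quasi-likelihood adjusted p = 1.05e-05). Gbp5 stood at 31.3, 28.5 and 24.7 CPM at 1 h and at 359, 452 and 425 at 24 h (log2 change 3.88 ± 0.41, edgeR adjusted p = 4.9e-09). Every 24 h library was above every 1 h library for both genes, and the 6 h libraries lay between them. Gbp3 rose by 2.94 ± 0.39 on the log2 scale (edgeR adjusted p = 3.32e-07). The family's members resemble each other, and how reads common to them were assigned is not given in the sources used here.

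Ifit3, a member of the interferon-induced IFIT family of antiviral RNA-binding proteins (chromosome 19, 34583119 to 34588982), stood at 35.7, 32.1 and 27.9 CPM at 1 h, at 181 and 140 at 6 h, and at 376, 440 and 338 at 24 h. Its log2 change was 3.60 ± 0.43 (edgeR adjusted p = 5.75e-08). The neighbouring and very similar Ifit3b (34607530 to 34613403) rose by 3.75 ± 0.42 (edgeR adjusted p = 1.88e-09), and reads of this pair may be split between them. Xaf1, an interferon-induced partner of an apoptosis inhibitor, went from 38.8, 38.7 and 24.0 CPM to 291, 216 and 142 (log2 change 2.66 ± 0.31, edgeR adjusted p = 1.5e-08). Ly6a, the surface antigen Sca-1, went from 146, 123 and 118 CPM to 1007, 1282 and 946 (log2 change 3.07 ± 0.40, edgeR adjusted p = 2.37e-07). For all 4 genes the times did not overlap. Iigp1, an immunity-related GTPase, went from 86.8, 39.5 and 27.5 CPM to 662, 846 and 521, a log2 change of 3.74 ± 0.64 (edgeR adjusted p = 2.48e-05), or 4.33 without replicate 1 at 1 h, its highest early library. Slfn1, a Schlafen protein of lymphocytes that belongs to the quiescence list and to neither interferon list, went from 157, 183 and 173 CPM to 726, 842 and 721 (log2 change 2.16 ± 0.18, edgeR adjusted p = 2.95e-14).

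**Figure D1:**
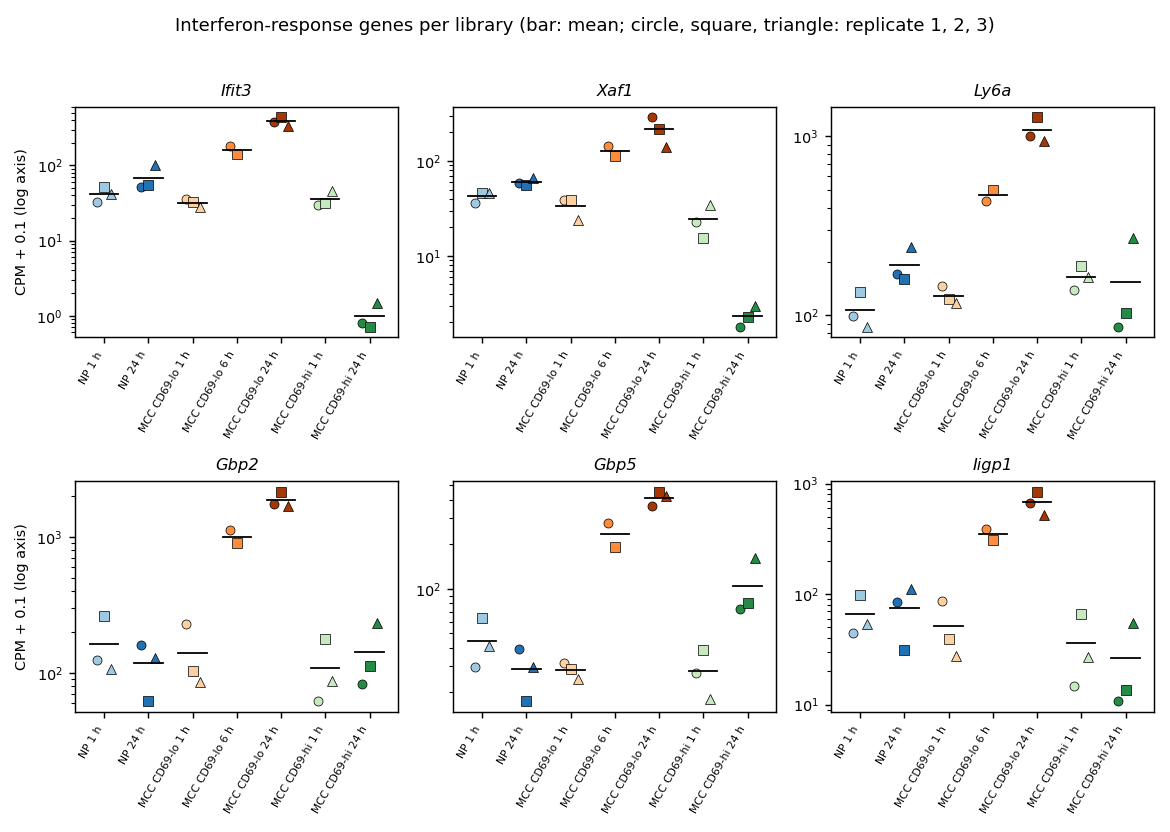
Ifit3, Xaf1, Ly6a, Gbp2, Gbp5 and Iigp1 in each library, as CPM + 0.1 on a log axis, for the groups NP, MCC CD69-lo and MCC CD69-hi by time (circle, square and triangle are replicates 1, 2 and 3, bars are group means). In the CD69-low gate all 6 genes were higher in every 24 h library than in any 1 h library, and the 6 h libraries lay between, except that 1 of them reached the lowest 24 h library for Xaf1.

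Few interferon response genes rose in the cells kept without peptide. In NP cells 2 of the 40 type I genes rose and 7 fell between 1 h and 24 h (median log2 change −0.02), in a comparison that called 4126 genes (24.0%), 11.3% of all genes higher and 12.6% lower. The test of the difference between the changes of CD69-low and NP cells called 574 genes in all (3.34%), 293 with a higher change in CD69-low cells (1.70%) and 281 with a lower change (1.63%). TMM factors gave 51% of these calls higher and RLE factors 63.2%. The lower count was 139 after thinning, DESeq2 called 1302 genes in all, and 342 were called without NP replicate 2 at 24 h. Of the 40 type I genes 26 changed more in CD69-low cells and none changed less, and of the 27 interferon gamma genes 15 and none. Ifit3 in NP cells stood at 32.4, 51.8 and 41.4 CPM at 1 h and 51.9, 54.8 and 99.9 at 24 h, and the changes differed by 2.87 (edgeR adjusted p = 0.00240). Gbp5 in NP cells stood at 29.8, 63.2 and 40.9 CPM and then 39.0, 17.3 and 29.5, and the changes differed by 4.52 (edgeR adjusted p = 6.11e-06). Gbp2 differed by 4.22 (edgeR adjusted p = 0.00134). The count of interferon gamma genes fell to 7 without NP replicate 2 at 24 h and to 9 without NP replicate 2 at 1 h, and was 23 in DESeq2. The type I count was 21 to 28 with any 1 library left out.

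The myeloid and dendritic markers rose as a sum in these libraries, as the interferon genes did, but not every marker rose. Their summed RNA over the marker list was 259 to 395 CPM at 1 h, 999 and 806 CPM at 6 h and 1312 to 1806 CPM at 24 h in the CD69-low gate, and 194 to 497 CPM in NP cells at 24 h. Ccl22, a member of that list, stood at 713, 272 and 610 CPM (TMM-scaled) in the CD69-low libraries of 24 h, a large part of the sum. The part of these other transcripts in the interferon result was not tested.

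Most genes of the early receptor response list fell. Of 33 early T cell receptor response genes 24 fell and 2 rose, with a median log2 change of −1.61, and leaving out any 1 library left 22 to 25 lower. The Nr4a genes encode orphan nuclear receptors transcribed within an hour of receptor signalling. Nr4a1 (Nur77) went from 9899, 5040 and 4578 CPM to 772, 743 and 448 (log2 change −3.32 ± 0.51, edgeR adjusted p = 4.96e-06). Nr4a2 (chromosome 2, 57106830 to 57124003) went from 2026, 1408 and 1046 CPM to 10.4, 16.5 and 22.4 (log2 change −6.45 ± 0.45, edgeR adjusted p = 2.1e-13). Nr4a3 went from 6623, 3737 and 2907 CPM to 380, 386 and 304 (log2 change −3.63 ± 0.31, edgeR adjusted p = 7.58e-12). All 3 were lower in every 24 h library than in any 1 h library, and the fitted change of Nr4a2 was the largest of the family, a difference between genes that was not tested.

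Fosl2, an AP-1 subunit, went from 2415, 1786 and 1429 CPM to 85.0, 133 and 97.2 (log2 change −4.14 ± 0.21, edgeR adjusted p = 5.36e-23). Egr2 and Egr3, zinc finger factors that restrain later responses, fell by 2.93 ± 0.49 and 3.23 ± 0.45 on the log2 scale (edgeR adjusted p = 2.02e-05 and 9.15e-07). Egr1 stood at 5507, 3184 and 2986 CPM at 1 h and at 780, 732 and 960 at 24 h, with no overlap. Its log2 change of −2.24 ± 0.75 (edgeR adjusted p = 0.0241) lost the call without replicate 1 at 1 h (−1.90, adjusted p = 0.0858) and without replicate 1, 2 or 3 at 24 h (adjusted p = 0.0667, 0.0716 and 0.0505). Fos, by contrast, stood at 279, 197 and 301 CPM and then at 117, 94.9 and 320, and its groups overlapped (log2 change −0.54 ± 0.59, edgeR adjusted p = 0.521). Junb fell by 1.83 ± 0.43 (edgeR adjusted p = 0.00127), although its libraries overlapped and both replicate 3 libraries were the lowest of their time. With only the CD69-low libraries of the 2 times in the fit its edgeR adjusted p was 0.098.

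Cd69 itself went from 1595, 824 and 949 CPM to 292, 278 and 298 (log2 change −1.96 ± 0.46, edgeR adjusted p = 0.00143). The cells of both times were sorted for low CD69 protein, so this is the transcript within a gate on its product. Myc, which drives growth after activation, went from 476, 291 and 335 CPM to 170, 209 and 117 (log2 change −1.15 ± 0.23, edgeR adjusted p = 0.000159). Irf4, whose level follows receptor signal strength in T cells, went from 736, 403 and 507 CPM to 234, 182 and 149 (log2 change −1.55 ± 0.24, edgeR adjusted p = 1.19e-06). Btg2 and Tob2, antiproliferative proteins, fell by 2.13 ± 0.28 and 3.34 ± 0.25 (edgeR adjusted p = 2.17e-07 and 9.02e-15). The 6 h libraries were already below every 1 h library for Cd69, at 359 and 480 CPM, and for Myc, at 165 and 275.

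Early transcripts also fell in NP cells, from other starting levels. In NP cells 21 of the 33 early genes fell (median log2 change −1.34), and the difference of the changes was called for 9 genes, 6 with a higher change in CD69-low cells (10 without NP replicate 1 at 24 h) and 3 with a lower (6 with DESeq2, 5 without CD69-low replicate 2 or NP replicate 2 at 1 h). Fosl2 fell by 7.22 on the log2 scale in NP cells, from 1146, 1120 and 1056 CPM to 9.05, 4.52 and 8.51, and the difference of 3.09 passed the test (edgeR adjusted p = 9.03e-11). Nr4a3 in NP cells went from 614, 806 and 547 CPM to 6.63, 6.59 and 17.5, so at 24 h the CD69-low libraries held 304 to 386 CPM where NP libraries held under 18 CPM (difference of changes 2.33, edgeR adjusted p = 0.000737). Irf4 fell by 2.97 in NP cells, to 14.5, 8.85 and 12.6 CPM, and the difference of 1.42 (edgeR adjusted p = 0.0113) lost the call without NP replicate 2 at 1 h (1.11, adjusted p = 0.0764) or at 24 h (1.24, adjusted p = 0.0627). Myc went the other way in NP cells, rising from 31.2, 26.2 and 26.8 CPM to 68.8, 54.8 and 55.9, and the difference was −2.23 (edgeR adjusted p = 4.44e-05). Nr4a1, Nr4a2, Egr2 and Cd69 fell in both, with differences of 1.52, 0.20, −0.18 and 1.30 that did not pass the test (edgeR adjusted p = 0.279, 0.970, 0.991 and 0.339).

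**Figure D2:**
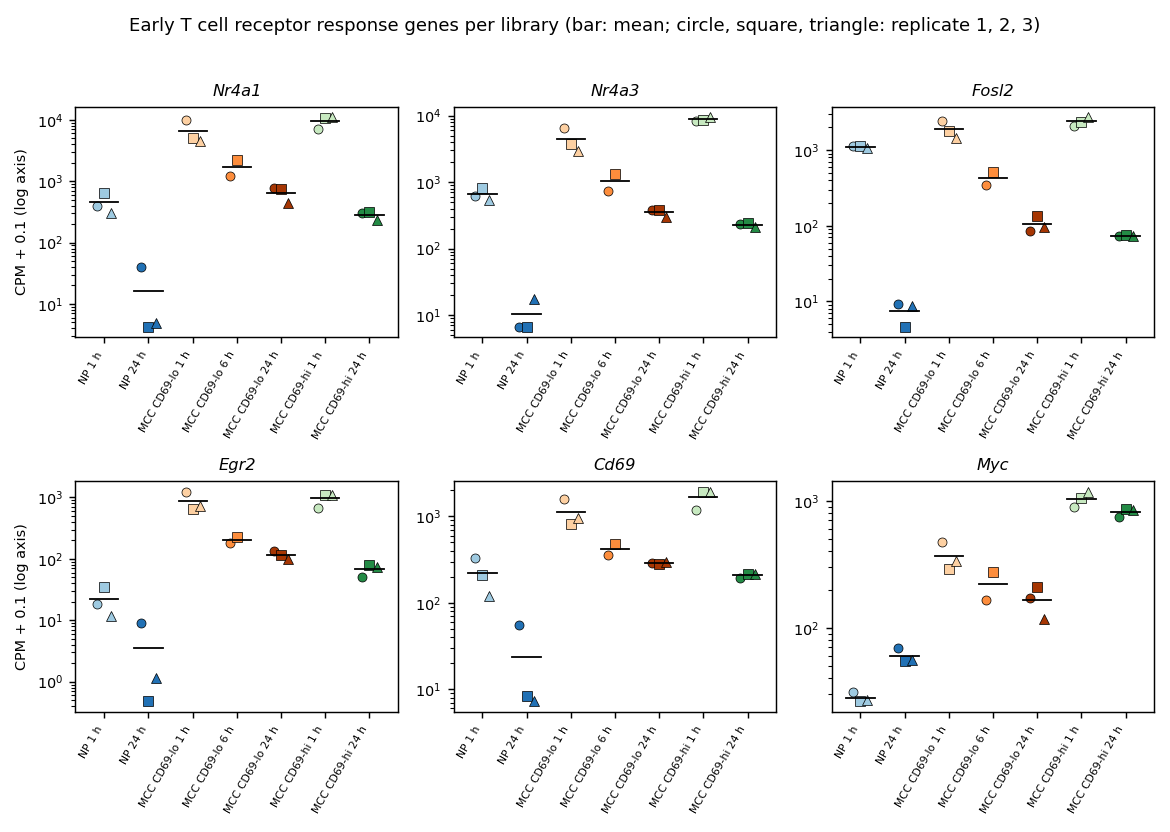
Nr4a1, Nr4a3, Fosl2, Egr2, Cd69 and Myc in each library, as CPM + 0.1 on a log axis, by group and time (circle, square and triangle are replicates 1, 2 and 3, bars are group means). In the CD69-low gate every 24 h library was below every 1 h library for all 6 genes, and every one of them was above every NP library of 24 h.

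The feedback genes of the ERK pathway fell in part. Of 18 such genes 9 fell and 1 rose (median log2 change −1.08). Dusp5, a nuclear ERK phosphatase, went from 895, 563 and 469 CPM to 68.0, 84.6 and 54.4 (log2 change −3.20 ± 0.24, edgeR adjusted p = 3.71e-15). Spred2 and Spry1, inhibitors of the Ras to ERK step, fell by 2.95 ± 0.19 and 3.84 ± 0.78 (edgeR adjusted p = 8.67e-19 and 0.000258). Dusp5 and Spred2 fell in NP cells too, by 3.54 and 2.64, and their differences did not pass the test (edgeR adjusted p = 0.675 and 0.605). Rgs2, a regulator of G protein signalling, went from 163, 148 and 186 CPM to 9.45, 6.16 and 22.9 (log2 change −3.72 ± 0.27, edgeR adjusted p = 2.88e-16), or −4.53 without replicate 3 at 24 h.

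NFAT and NF-kB target genes were mixed. Of 19 NFAT targets, which include the Nr4a genes and Egr2 and Egr3 counted above, 10 fell and 3 rose. Of 25 NF-kB targets 12 fell and 8 rose (median log2 change −0.57), and 5 rose after thinning. In 5 the change was higher than in NP cells, or in 8 with DESeq2 or the B cell covariate. Rel, the NF-kB subunit of activated lymphocytes, went from 831, 607 and 807 CPM to 178, 151 and 198 (log2 change −2.09 ± 0.19, edgeR adjusted p = 2.43e-13), and fell by 2.09 in NP cells as well. Bcl10, an adaptor between the antigen receptor and NF-kB, fell by 1.57 ± 0.17 (edgeR adjusted p = 4.29e-11) and by 1.49 in NP cells. The risers of the NF-kB list were headed by Ccl22, a chemokine that dendritic cells make in quantity and that attracts CCR4-bearing T cells. It went from 0.770, 3.05 and 10.5 CPM to 713, 272 and 610 (log2 change 6.75 ± 0.76, edgeR adjusted p = 1.73e-08), with 401 and 353 CPM at 6 h, or 7.95 without replicate 3 at 1 h. Ebi3, a subunit of interleukin 27 and 35, rose by 3.12 ± 0.71 (edgeR adjusted p = 0.000497), or 4.30 without that library. The differences of Ccl22 and Ebi3 from NP, 2.72 and −0.02, did not pass the test (edgeR adjusted p = 0.766 and 0.984). NP libraries held Ccl22 at 0 to 0.615 CPM at 1 h and at 0.188 to 9.27 CPM at 24 h. They held Ebi3 at 0 to 0.154 CPM and then at 0.201 to 1.52 CPM. At such low NP counts the test cannot decide whether the changes differ.

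Activation receptors moved in both directions. Of 23 activation receptors 6 rose and 11 fell, with 3 higher without replicate 2 at 1 h. Cd28, the main costimulatory receptor, went from 476, 442 and 398 CPM to 52.9, 50.2 and 90.6 (log2 change −2.76 ± 0.22, edgeR adjusted p = 2.39e-14). In NP cells it fell by 0.99, to 225, 272 and 291 CPM, and the difference of −1.77 passed the test (edgeR adjusted p = 0.000118). Cd40lg, the ligand through which helper T cells stimulate B cells and dendritic cells, went from 469, 249 and 277 CPM to 42.5, 37.6 and 58.5 (log2 change −2.85 ± 0.40, edgeR adjusted p = 9.74e-07). NP cells held it at 39.2, 61.2 and 40.3 CPM and then at 77.8, 66.5 and 57.4, so the CD69-low libraries began above NP and ended beside them (difference −3.36, edgeR adjusted p = 0.000191). Tnfrsf9, a costimulatory receptor of the TNF receptor family, went from 1.03, 1.19 and 2.47 CPM to 17.9, 9.07 and 9.67 (log2 change 2.81 ± 0.86, edgeR adjusted p = 0.0136, or 0.0512 without replicate 2 at 1 h and 0.118 after thinning). Il2rb, the beta chain shared by the interleukin 2 and 15 receptors, went from 9.76, 6.95 and 10.7 CPM to 137, 83.6 and 102 (log2 change 3.54 ± 0.46, edgeR adjusted p = 2.03e-07), while NP cells stayed at 4.86 to 10.5 CPM at both times (difference 4.11, edgeR adjusted p = 0.000338).

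Il2ra, the alpha chain, stood at 82.7, 48.8 and 67.0 CPM and then at 144, 93.3 and 70.7 in CD69-low cells, and its groups overlapped (log2 change 0.61 ± 0.36, edgeR adjusted p = 0.209). In NP cells it fell by 2.75, to 3.01 to 5.92 CPM, and the difference of 3.36 passed the test (edgeR adjusted p = 0.000392). Ctla4, an inhibitory receptor, fell by 3.08 in NP cells, to 3.39 to 5.03 CPM, while the CD69-low libraries stood at 16.4, 30.4 and 26.9 CPM and then 10 to 18.3 (difference 2.27, edgeR adjusted p = 0.000337). Its own change of −0.82 in CD69-low cells (edgeR adjusted p = 0.0265) lost the call with RLE factors (adjusted p = 0.0831), without replicate 2 or 3 at 1 h (adjusted p = 0.138 and 0.0699) and without replicate 2 at 24 h (adjusted p = 0.223). Lag3, another inhibitory receptor, went from 0.770, 1.36 and 1.44 CPM to 17.0, 23.0 and 9.16 (log2 change 3.76 ± 0.62, edgeR adjusted p = 1.21e-05). Tigit fell by 2.74 ± 0.57, from 11.6, 14.9 and 17.1 CPM to 3.78, 2.27 and 1.02 (edgeR adjusted p = 0.000163). Across the 30 inhibitory receptor and anergy genes 9 rose and 11 fell, and the median was −0.14 with TMM and 0.02 with RLE factors. Without both replicate 3 libraries 5 rose.

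Genes of the T cell receptor complex and its first signalling steps were mostly lower. Of 30 such genes 19 fell and 6 rose (median log2 change −0.55), or 14 and 7 with RLE factors, and 3 rose without replicate 3 at 1 h, without replicate 1 at 24 h, with no filter on low counts or with the B cell covariate. In 5 of them the change was lower than in NP cells, and in 3 when NP replicate 3 at 1 h, NP replicate 2 at 24 h or CD69-low replicate 1 at 1 h was left out. The shorter list of 15 T cell markers had 11 lower and 1 higher, or 7 and 3 with RLE factors, and 7 lower without replicate 1 at 1 h. Thy1, a surface glycoprotein of T cells, went from 695, 655 and 555 CPM to 218, 196 and 198 (log2 change −1.64 ± 0.19, edgeR adjusted p = 2.86e-10; difference from NP −1.08, edgeR adjusted p = 0.00618). Themis, which tunes receptor signals, fell by 1.29 ± 0.19 (edgeR adjusted p = 2.85e-07) and stood at 182, 186 and 176 CPM in NP cells at 24 h against 27.4, 71.6 and 71.2 (difference −1.38, edgeR adjusted p = 0.000455). Cd5, a negative regulator whose level follows self-reactivity, went from 163, 101 and 76.6 CPM to 52.9, 28.5 and 20.9 (log2 change −1.82 ± 0.35, edgeR adjusted p = 0.000143). The adaptor Lat fell by 0.94 ± 0.19 (edgeR adjusted p = 9.39e-05). Rasgrp1, the exchange factor that links the receptor to Ras, rose by 1.64 ± 0.20 (edgeR adjusted p = 8.26e-09), but its 24 h libraries were uneven at 954, 534 and 274 CPM, and it rose by 1.16 in NP cells.

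Homing and quiescence genes were not uniform. Klf2, the factor that maintains homing receptors, stood at 512, 729 and 263 CPM and then at 435, 529 and 189 (log2 change −0.38 ± 0.30, edgeR adjusted p = 0.351). S1pr1, the egress receptor, Ccr7, the chemokine receptor for lymph node entry, and Il7r, the interleukin 7 receptor, had log2 changes of −0.62, −0.61 and −0.89 (edgeR adjusted p = 0.0155, 0.0449 and 0.0303). All 3 calls were lost with RLE factors (adjusted p = 0.0806, 0.130 and 0.0832) and without replicate 3 at 1 h (adjusted p = 0.0661, 0.253 and 0.0658). Ccr7 was also lost without replicate 2 at 1 h, or 1 or 3 at 24 h (edgeR adjusted p = 0.0719, 0.0859 and 0.158). S1pr1 was lost without replicate 1 at 24 h (adjusted p = 0.0736), and Il7r without replicate 2 at 1 h, or 1 or 2 at 24 h (adjusted p = 0.115, 0.170 and 0.0988). Over the 32 genes of the list 7 rose and 17 fell, or 10 and 11 with RLE factors, 11 fell without replicate 1 at 24 h and 10 after thinning.

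Genes linked to memory and interleukin 7 signals rose on balance, 11 of 17 with 3 lower (median log2 change 1.14), while their median in NP cells was −0.67. Socs2, a suppressor of cytokine signalling that STAT5 induces, went from 0.770, 1.87 and 2.26 CPM to 79.4, 58.6 and 58.5 (log2 change 5.24 ± 0.57, edgeR adjusted p = 4.69e-09) and was already at 74.5 and 70.3 CPM at 6 h. It rose by 3.82 in NP cells as well, from under 0.5 CPM to 2.21 to 8.05. Ly6c2, a surface marker of naive and memory T cells, went from 3.85, 3.39 and 2.26 CPM to 28.3, 75.8 and 11.2 (log2 change 3.63 ± 0.68, edgeR adjusted p = 5.16e-05), or 2.59 without replicate 2 at 24 h. Eomes, a T-box factor of memory and natural killer cells, held 2 counts in the 1 h libraries together and 0, 0.339 and 0 CPM there, against 2.83, 9.39 and 2.04 CPM at 24 h, a ratio of 43.1 with a 95% exact counting interval of 11.1 to 369. Its fitted log2 change of 5.00 was 3.92 without replicate 2 at 24 h and 7.58 without replicate 2 at 1 h. Slamf6, a receptor of long-lived T cells, rose by 2.02 ± 0.20 (edgeR adjusted p = 2.5e-11) and by 1.63 in NP cells.

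The lists of helper T cell types differed. Of 12 T helper 1 genes 7 rose and 1 fell, of 8 T helper 2 genes 1 rose and 3 fell, and of 12 follicular helper genes 4 rose and 6 fell. Of 15 regulatory T cell genes 4 rose and 2 fell, with 2 higher without replicate 1 at 24 h. Over all genes 13.3% were higher and 15% lower, so the higher count of the T helper 2 list and the lower count of the regulatory list lie near that background. Tbx21, the T helper 1 factor T-bet, went from 2.2 to 2.31 CPM to 14.2, 29.5 and 9.67 (log2 change 3.04 ± 0.58, edgeR adjusted p = 8.16e-05), or 2.34 without replicate 2 at 24 h. Gzmb, the cytotoxic protease granzyme B, went from 0.514, 1.36 and 1.03 CPM to 114, 35.3 and 194 (log2 change 6.78 ± 0.97, edgeR adjusted p = 3.62e-06), or 6.14 without replicate 3 at 24 h. Ifng, which encodes interferon gamma, was at 0.257, 0.170 and 0 CPM and then at 7.56, 13.3 and 72.8, with the highest value in replicate 3. Its ratio was 230 (95% exact counting interval 62.8 to 1911), and these intervals cover counting error only. The fitted log2 change of Ifng was 7.60, or 6.05 without replicate 3 at 24 h. Il22, a cytokine of Th22 and innate lymphoid cells, was at 0, 0 and 0.205 CPM and then at 115, 23.3 and 21.4, a ratio of 565 (100 to 22408). Its fitted log2 change of 9.07 was 7.89 without replicate 1 at 24 h and 10.91 without replicate 3 at 1 h, and it lost the call after thinning (edgeR adjusted p = 0.059). Xcl1, the chemokine lymphotactin, had no count in the 1 h libraries and 32.1, 9.39 and 11.2 CPM at 24 h, at least 67.8-fold higher against a floor of 3 counts over the 1 h group. Tnfsf8, the CD30 ligand, went from 10.3, 15.3 and 12.1 CPM to 221, 203 and 118 (log2 change 3.82 ± 0.34, edgeR adjusted p = 4.29e-11).

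Il2, the growth factor of activated T cells, stayed at the edge of detection in this gate. It stood at 0.257, 0 and 0.822 CPM at 1 h and at 0, 0.648 and 1.53 at 24 h, while the CD69-hi libraries averaged 546 CPM at 24 h. Across 29 cytokine and chemokine genes 11 rose and 2 fell in the CD69-low gate. After thinning the number that rose was 6.

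Among the largest risers outside these groups were Apol7c, an apolipoprotein L family gene, which went from 0.514, 1.70 and 5.14 CPM to 355, 202 and 271 (log2 change 6.75 ± 0.67, edgeR adjusted p = 1.2e-09), or 7.78 without replicate 3 at 1 h. It was at 397 and 307 CPM at 6 h. In NP cells Apol7c rose by 4.91 (edgeR adjusted p = 0.00565), from 0.307, 0.200 and 0 CPM to 2.26 to 9.72 CPM. The difference of 1.83 did not pass the test (edgeR adjusted p = 0.856), which rests on few NP counts at 1 h. Serpinb9b, a serpin of the granzyme inhibitor family, held 1 count at 1 h and 35.0, 27.9 and 31.5 CPM at 24 h, a ratio of 443 (95% exact counting interval 78.5 to 17586). Dll4, a Notch ligand, held 1 count at 1 h and 26.5, 11.3 and 38.7 CPM at 24 h, a ratio of 333 (58.7 to 13236), with 78.8 and 54.9 CPM at 6 h. Apol7c, Ccl22 and Dll4 were thus present at 6 h, whereas Gzmb was at 0 CPM in both 6 h libraries. The fitted log2 change of Serpinb9b was 8.37, or 10.20 without replicate 2 at 1 h, and that of Dll4 was 8.03, or 9.88 without replicate 1 at 1 h. Dll4 did not pass the test of the difference from NP (4.71). NP libraries held it at 0 CPM at 1 h and at 0, 0.188 and 0.456 CPM at 24 h, too few counts for that test to decide.

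The steepest falls followed no single list. Sgip1, an endocytic adaptor regulator, went from 10.5, 10.5 and 21.4 CPM to no count in any 24 h library, at least 28.8-fold lower against a floor of 3 counts over the 24 h group. The loci Mir212 and Mir132, annotated for a pair of microRNAs, were at 22.6, 8.65 and 0.822 CPM and at 13.1, 4.07 and 1.03 CPM at 1 h and had no count at 24 h (at least 19.9-fold and 11.1-fold lower). These are counts of polyadenylated RNA over the loci, not of mature microRNAs, and replicate 3 at 1 h held little of either. Ramp3, a co-receptor for calcitonin-like receptors, went from 302, 243 and 355 CPM to 0, 13 and 4.07 (log2 change −5.34 ± 0.48, edgeR adjusted p = 1.14e-10), or −6.83 without replicate 2 at 24 h. Sytl2, a vesicle tethering protein, went from 66.5, 79.2 and 91.0 CPM to 0.945, 1.30 and 1.53 (log2 change −5.89 ± 0.65, edgeR adjusted p = 5.86e-09). Dusp8, a phosphatase of stress kinases, went from 34.9, 39.3 and 34.5 CPM to 0, 1.30 and 0.509 (log2 change −5.45, or −6.68 without replicate 2 at 24 h). Gls2, the liver-type glutaminase, held 2 counts at 24 h and a ratio of 0.0230 to 1 h (95% exact counting interval 0.00277 to 0.0842). Its fitted log2 change of −5.36 was −9.09 without replicate 2 at 24 h. Ramp3, Sytl2, Dusp8 and Gls2 also fell in NP cells, by 6.72, 4.69, 5.83 and 4.90 on the log2 scale, and none of the 4 differences passed the test (edgeR adjusted p = 0.378, 0.617, 0.907 and 0.947). Sgip1 and Mir132 had fitted log2 changes of −7.07 and −5.47 in NP cells, beside −9.07 and −7.83 in CD69-low cells.

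Ribosome and nutrient uptake genes were lower in the CD69-low gate at 24 h, and a part of the cell cycle genes was higher. Of 37 ribosome biogenesis genes 29 fell and none rose (median log2 change −0.82). Rrp12, a ribosome export factor, went from 124, 109 and 104 CPM to 39.7, 24.0 and 27.5 (log2 change −1.95 ± 0.27, edgeR adjusted p = 2.23e-07), and Nop58, a core protein of small nucleolar ribonucleoproteins, went from 206, 195 and 191 CPM to 71.8, 80.7 and 74.3 (log2 change −1.38 ± 0.17, edgeR adjusted p = 5.8e-09). Both also fell in NP cells, by 2.06 and 1.31. By the test of the difference 1 of the 37 genes differed from NP, near the 3.34% of all genes tested. Of 54 ribosomal protein genes 18 fell and none rose, with 11 to 26 lower when any 1 library was left out (11 without replicate 1 at 1 h) and 10 without both replicate 3 libraries. Rpsa fell by 0.91 ± 0.19 (edgeR adjusted p = 0.000225) and by 0.89 in NP cells.

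Nutrient uptake genes fell as well. Of 31 amino acid uptake and ATF4 target genes 15 fell and none rose (median log2 change −0.77). In NP cells 16 of them fell and 1 rose (median −0.96). By the test of the difference 1 had a lower change in CD69-low cells than in NP and 2 a higher one, beside 1.63% and 1.70% of all genes tested. Slc7a5, the large neutral amino acid transporter, went from 272, 196 and 127 CPM to 87.9, 47.0 and 27.0 (log2 change −1.95 ± 0.33, edgeR adjusted p = 1.45e-05). Slc7a1, a cationic amino acid transporter, fell by 2.32 ± 0.20, and the glucose transporter Slc2a1 and the lactate transporter Slc16a1 fell by 1.23 ± 0.19 and 1.77 ± 0.25 (edgeR adjusted p = 9.66e-14, 7.81e-07 and 9.25e-08). Glycolysis genes fell in 7 of 25 and rose in 2, with 4 lower under RLE factors or without replicate 1 at 24 h. In NP cells 8 glycolysis genes fell and 2 rose. Of 24 heat shock and stress genes 15 fell and 1 rose (median −1.23), Hsph1 by 2.19 ± 0.56 (edgeR adjusted p = 0.00295), and the NP median was −1.21. Oxidative phosphorylation and cholesterol synthesis genes had medians of 0.07 and 0.06, near that of all genes, with 2 of 34 and 9 of 31 higher, 2 and 6 lower. Within the cholesterol synthesis list the enzyme gene Mvk fell by 2.09 ± 0.32, or by 2.71 without replicate 2 at 24 h, while the enzyme genes Fdft1 and Lss rose by 1.41 ± 0.28 and 1.21 ± 0.27 (edgeR adjusted p = 1.05e-06, 0.000107 and 0.00037). Fdft1 rose by 1.04 in NP cells as well, and its difference of 0.37 did not pass the test (edgeR adjusted p = 0.722).

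Cell cycle genes rose in 16 of 40 and fell in 2 (median log2 change 0.53), with 10 higher without replicate 3 at 24 h, after thinning, or with only the 6 libraries in the fit. Mki67, a protein of dividing cells, went from 10 to 18.5 CPM to 60.5, 32.4 and 54.4 (log2 change 1.70 ± 0.48, edgeR adjusted p = 0.00716, or 0.0785 after thinning). Ccna2, which encodes cyclin A2, went from 1.03, 2.04 and 2.05 CPM to 17.0, 7.13 and 10.7 (log2 change 2.58 ± 0.52, edgeR adjusted p = 0.000101). Both levels stayed far below those of the CD69-hi gate at 24 h, with means of 358 and 104 CPM.

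**Figure D3:**
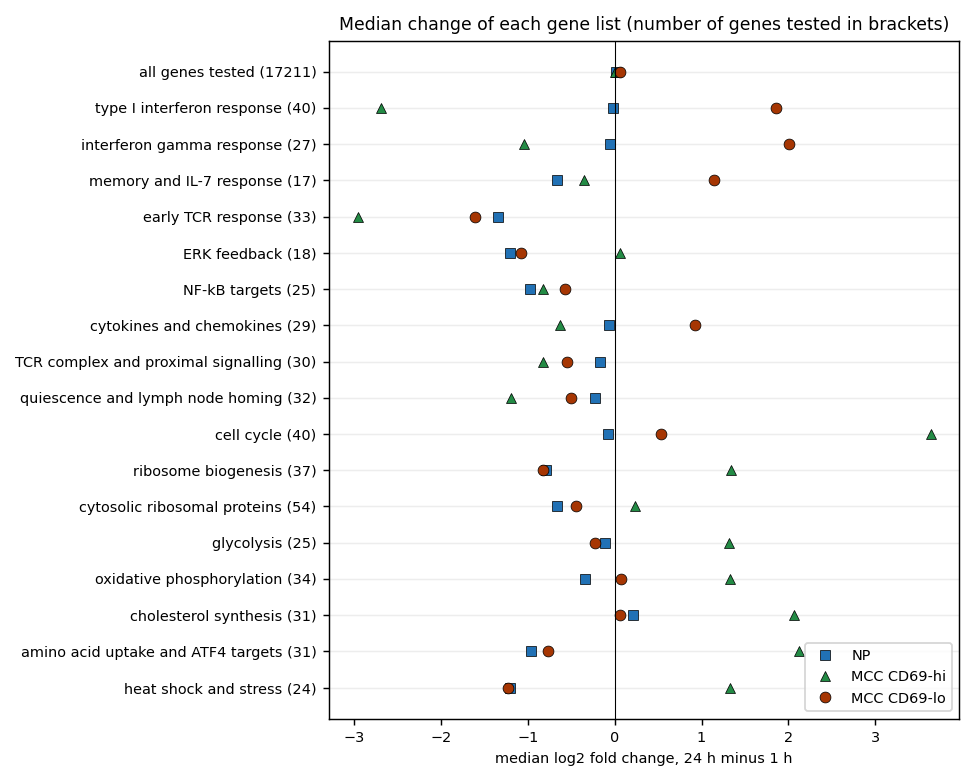
Median log2 change from 1 h to 24 h of 17 gene lists and of all genes tested, in MCC CD69-lo (circles), NP (squares) and MCC CD69-hi (triangles); the number of genes tested is in brackets. The CD69-low medians were 1.86 and 2.01 for the interferon lists, where NP was near 0, and −0.82 for ribosome biogenesis, where NP was at −0.79 and CD69-hi at 1.34.

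Ribosome biogenesis and type I interferon genes moved in opposite directions in the 2 gates. The test of the difference between the changes of the CD69-low and CD69-hi cells called 8010 genes (46.5%), 3519 with a higher change in CD69-low cells (20.4%) and 4491 with a lower change (26.1%). With RLE factors the higher share of these calls was 57.6%, against 43.9% with TMM. The CD69-hi libraries of 1 h held 3264 to 5288 CPM of B cell marker RNA and those of 24 h held 180 to 336, while the CD69-low libraries held 1326 to 4579 and 881 to 1809, so this marker sum moved with the comparison. With the sum as a covariate 5235 genes were called, 1903 of them higher.

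All 37 ribosome biogenesis genes had a lower change in the CD69-low gate, with or without that covariate. So did 35 of 40 cell cycle genes (31 with the covariate), 27 of 34 oxidative phosphorylation genes (20), 26 of 31 cholesterol synthesis genes (19) and 25 of 31 amino acid uptake and ATF4 genes (18). Rrp12 rose by 1.21 in CD69-hi cells, to a mean of 337 CPM, and the changes differed by −3.16 (edgeR adjusted p = 7.17e-10). Slc16a1 rose by 2.96 there (difference −4.74, edgeR adjusted p = 9.95e-18), Slc7a5 by 1.90 (difference −3.85, edgeR adjusted p = 4.98e-09) and Rpsa by 0.49 (difference −1.40, edgeR adjusted p = 2.41e-05). Each of these 4 genes fell in the CD69-low gate.

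Of the 40 type I interferon genes 38 had a higher change in the CD69-low gate, and 39 with the B cell covariate. In CD69-hi cells, where 9638 genes changed with time (56.0%, with 30.0% higher and 26.0% lower), 35 of them fell and none rose, with a median of −2.69. Ifit3 fell by 5.29 there, from a mean of 35.5 to 0.892 CPM, and the changes differed by 8.89 (edgeR adjusted p = 2.37e-11). Xaf1 fell by 3.52 (difference 6.19, edgeR adjusted p = 3.74e-12). Of the 27 interferon gamma genes 14 fell and 1 rose in CD69-hi cells, with a median log2 change of −1.04. By the test of the difference 26 of them had a higher change in the CD69-low gate, or 16 with the covariate. Gbp5 was the 1 that rose in CD69-hi cells, by 2.05, to a mean of 105 CPM. Its difference of 1.83 (edgeR adjusted p = 0.0111) was 0.94 with the covariate (adjusted p = 0.431).

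Klf2, Egr3 and Socs2 separated the gates as well. Klf2 fell by 4.90, to a mean of 5.74 CPM, against 189 to 529 CPM in the CD69-low libraries at 24 h (difference 4.52, edgeR adjusted p = 7.22e-10). Egr3 fell by 6.35 in CD69-hi cells (difference 3.12, edgeR adjusted p = 7.67e-05), and Socs2 had a difference of 5.58 (edgeR adjusted p = 3.7e-06), or 4.83 without CD69-hi replicate 3 at 1 h. Il2rb rose in both gates, by 3.54 and 3.57, and the difference of −0.03 did not pass the test (edgeR adjusted p = 1.00). Rel and Bcl10 fell in both gates, with differences of 0.24 and −0.06 that did not pass the test (edgeR adjusted p = 0.468 and 0.995).

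Many of the CD69-low changes had a counterpart in the cells kept without peptide. Of the 2583 genes that fell in CD69-low cells, 1504 fell in NP cells (58.2% of the CD69-low list and 69.2% of the NP list) and 17 rose, while 1004 fell in CD69-hi cells (38.9% and 22.4%) and 829 rose. Of the 2292 genes that rose, 866 rose in NP cells (37.8% and 44.4%) and 29 fell, while 688 rose in CD69-hi cells (30.0% and 13.3%) and 554 fell. The comparisons within CD69-low, NP and CD69-hi cells share no library. The test of the difference from NP, by contrast, uses the CD69-low libraries that defined these risers and fallers. It was passed by 209 of the risers, of which 196 rose more than in NP. Among the fallers 174 passed it, of which 147 fell more than in NP. Over all genes 11.3% rose and 12.6% fell in NP cells, 30.0% rose and 26.0% fell in CD69-hi cells, and 13.3% rose and 15% fell in CD69-low cells, so the share of risers in common with CD69-hi cells equals the share over all genes.

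**Figure D4:**
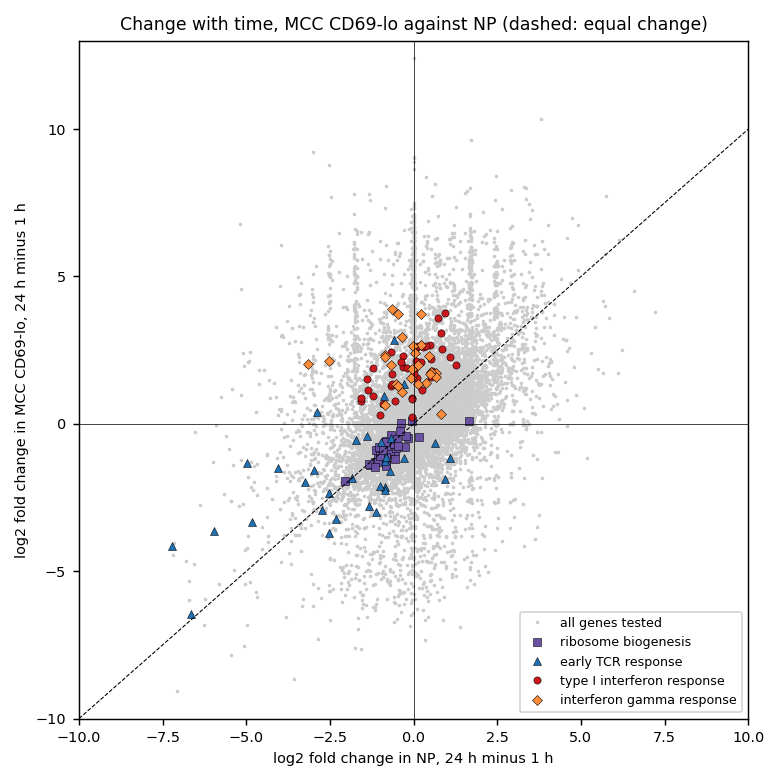
Log2 change from 1 h to 24 h in MCC CD69-lo (vertical axis) against NP (horizontal axis) for all 17211 genes tested, with 4 gene lists marked; the dashed line is equal change. The medians of the type I and gamma interferon lists were 1.86 and 2.01 in CD69-low cells and −0.02 and −0.05 in NP cells, with single genes spread around them.

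Transcripts of other cell types were present and shifted with time. The defining myeloid, dendritic and B cell markers are listed because a sort for a T cell phenotype could hold such cells, and because Rag2-deficient mice make no mature B cells of their own. Of 28 myeloid and dendritic markers 13 were higher at 24 h and 1 was lower (median log2 change 1.59, 0.80 in NP cells). The test of the difference called 1 gene with a higher change than in NP, beside 1.70% of all genes tested. Of the 31 features that matched the list 1 to 4 had no count in a 1 h library and 3 to 8 in a 24 h library. Siglech, a plasmacytoid dendritic cell lectin, went from 0, 1.19 and 0.822 CPM to 64.2, 76.8 and 9.16 (log2 change 6.05 ± 0.90, edgeR adjusted p = 3.65e-06), or 6.72 without replicate 2 at 1 h. Batf3 and Zbtb46, factors of conventional dendritic cells, rose by 4.26 ± 0.73 and 1.72 ± 0.38 (edgeR adjusted p = 6.24e-06 and 0.000411), and Batf3 is also made by activated T cells. S100a8, a neutrophil calcium-binding protein, went from 0, 0.509 and 0.616 CPM to 69.9, 25.9 and 21.4 (log2 change 6.50 ± 1.45, edgeR adjusted p = 0.00125), or 5.80 without replicate 1 at 24 h. Lyz2 and Adgre1, the macrophage lysozyme and F4/80, had log2 changes of 0.87 and −1.27 that did not pass the test (edgeR adjusted p = 0.609 and 0.365), and without replicate 2 at 24 h that of Lyz2 was −0.31. Csf1r, the 1 marker called lower, went from 6.16, 19.5 and 11.7 CPM to 0, 1.30 and 2.04 (log2 change −3.26 ± 1.24, edgeR adjusted p = 0.0459). Its call was lost in several alternative runs, among them RLE factors (edgeR adjusted p = 0.0584).

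Of 15 natural killer and CD8 T cell markers 8 were higher and none lower (median log2 change 3.13, or 2.84 with genes at 0 placed at their bound), and 4 to 9 were higher with any 1 library left out (4 without replicate 1 at 1 h, 5 without replicate 2 at 24 h). After thinning 4 were higher, and 3 with only the 6 libraries in the fit. Their summed RNA was 70.3 to 82.4 CPM at 1 h and 215, 174 and 407 at 24 h. Ncr1, the natural killer receptor NKp46, had no count at 1 h and 4.72, 7.13 and 9.16 CPM at 24 h, at least 35.9-fold higher. Nkg7, a cytotoxic granule protein, rose by 3.13 ± 0.69, to 6.61, 6.80 and 11.7 CPM (edgeR adjusted p = 0.000337). Cd8a stood at 1.54, 3.22 and 3.08 CPM and then at 3.78, 9.39 and 5.60, and did not pass the test (edgeR adjusted p = 0.172). Gzmb, Xcl1, Ifng, Tbx21, Eomes and Il2rb are made by natural killer and CD8 T cells as well as by CD4 T cells, and the part of those cells in the changes given above was not tested.

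B cell and antigen presentation transcripts were lower at 24 h only in part. Of 20 B cell markers 10 fell and none rose (median log2 change −1.29), and of 13 genes of MHC class II presentation 4 fell. With RLE factors 6 B cell markers fell. Cd79a, a signalling chain of the B cell receptor, stood at 116, 83.9 and 355 CPM and then at 44.4, 68.4 and 102, so the groups overlapped, and replicate 3 at 1 h was the highest. Without that library 4 B cell markers were lower, Cd79a changed by −0.45 (edgeR adjusted p = 0.488), and 3 class II genes were higher and none lower. Without replicate 1 or replicate 2 at 24 h 6 B cell markers were lower. Class II genes were lower in 0, 2 and 1 cases without replicates 1, 2 and 3 at 24 h. With the B cell marker sum as a covariate 4 class II genes were higher and none lower. Fcer2a, the low-affinity IgE receptor CD23 of mature B cells, fell under each omission, from 58.0, 52.1 and 174 CPM to 8.50, 17.8 and 17.8 (log2 change −2.59 ± 0.55, edgeR adjusted p = 0.000441, or −1.80 and adjusted p = 0.0128 without replicate 3 at 1 h). Of 12 markers of stroma, endothelium and erythroid cells that were tested 2 were higher and 1 lower, near the 13.3% and 15% of all genes, and the list summed to 278 to 508 CPM at 1 h and 314 to 694 at 24 h. Of 30 apoptosis and p53 target genes 8 rose and 7 fell.

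**Figure D5:**
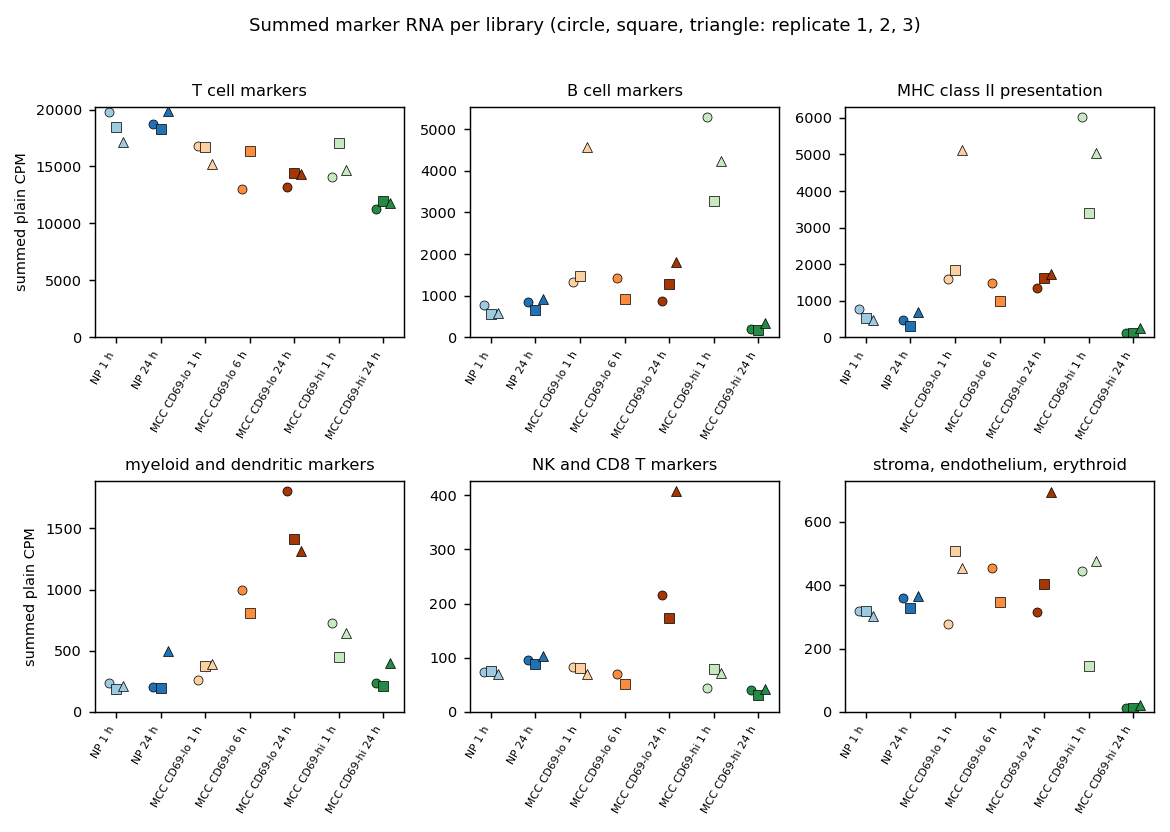
Summed plain CPM of 6 marker lists in each library, by group and time (circle, square and triangle are replicates 1, 2 and 3). Myeloid and dendritic RNA was 1312 to 1806 CPM in the CD69-low gate at 24 h against 259 to 395 at 1 h, and B cell RNA was highest in CD69-low replicate 3 at 1 h and in the CD69-hi libraries of 1 h.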

How the data were processed

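Poly-adenylated RNA of sorted lymph node T cells was sequenced as paired reads, per the labels' protocols. Reads were demultiplexed with bcl2fastq 2.20, aligned with STAR 2.6.1c and counted with HTSeq 0.9.1 on mm10, per the submitters' processing notes; the annotation release and strand setting are not given in the sources used here, so overlapping and antisense genes cannot be told apart. The deposited table holds the authors' raw counts per gene (34923 features, 51 libraries, 38 features with a repeated symbol). The authors' TPM table was not used.

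Counts were tested with edgeR 4.0.16 (R 4.3.3, limma 3.58.1): TMM factors, filterByExpr by group, 1 coefficient for each of the 18 groups, robust quasi-likelihood F-tests, two-sided, with Benjamini-Hochberg adjustment over all 17211 genes kept. The contrasts were CD69-low 24 h minus 1 h and that change minus the NP or CD69-hi change. The code was tested on simulated data. CPM values use TMM library sizes, and marker sums and the Xist, Gprin1 and Y-linked gene checks use plain library totals. Each SE is the absolute log2 change divided by the square root of the quasi-likelihood F statistic. It was not taken from the fit and is unreliable where a group holds few counts. Among 3512 genes above 50 CPM at both times the median SE of a log2 change was 0.171. Replicates of a group differed by chi-square values of 4.84 to 19.3 per degree of freedom, so all were counted as separate libraries. For a gene at 0 in a group the bound rests on 3 counts over the group, and ratios with 1 to 3 counts carry exact 95% intervals.

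Genes were named by a rule: a fixed panel, up to 15 rising and 15 falling genes by size with a mean of at least 5 CPM and no overlap, up to 4 members per list and up to 8 per direction of each difference. The named set was then shortened to genes whose calls were mostly stable, after their values were seen. The comparison and the gene lists were chosen with earlier results of these data known. The labels give no replicate numbers; a fit with a replicate block, by the order of title suffixes that look like plate wells, was run as an alternative. Other alternatives were RLE factors, no filter, DESeq2 1.42.0, fewer groups in the fit, thinning, a B cell marker covariate, leaving out each library and, added after seeing the data, leaving out both replicate 3 libraries. Promoter motifs could not be searched without promoter sequences. Gene positions come from RefSeq for GRCm38.p6.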

Additional observations from a re-analysis of the deposited data

Results flagged for a closer look

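The results below stood out because the change with time differed between CD69-low cells and another group by a test of the difference itself. In all, 574 genes differed from NP and 8010 differed from CD69-hi. Against NP the change was higher in CD69-low cells for the interferon genes Ifit3 (2.87 on the log2 scale), Ifit3b (2.80), Xaf1 (2.17), Ly6a (2.24), Gbp2 (4.22), Gbp3 (3.30), Gbp5 (4.52), and Iigp1 (3.52), and for Slfn1 (1.46) of the quiescence list. The Iigp1 difference lost the call without NP replicate 2 at 1 h (3.04, edgeR adjusted p = 0.0581) or at 24 h (3.15, edgeR adjusted p = 0.0536).

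Among signalling genes the change was higher than in NP for Fosl2 (3.09), Nr4a3 (2.33) and Irf4 (1.42), and lower for Myc (−2.23), Cd28 (−1.77), Cd40lg (−3.36), Themis (−1.38) and Thy1 (−1.08). It was higher for the receptor genes Il2rb (4.11), Il2ra (3.36) and Ctla4 (2.27) and for Ly6c2 (4.55) and Nkg7 (5.25). The Ly6c2 and Nkg7 values rest on low NP counts: Ly6c2 was 3.51 without CD69-low replicate 2 at 24 h and 5.87 without NP replicate 3 at 24 h, and Nkg7 was 4.66 without that NP library and 7.73 without NP replicate 1 at 24 h. Nr4a3 was 2.99 without NP replicate 3 at 24 h.

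Against CD69-hi the change was higher in CD69-low cells for Ifit3 (8.89), Xaf1 (6.19), Gbp5 (1.83), Klf2 (4.52), Egr3 (3.12) and Socs2 (5.58). It was lower for Rrp12 (−3.16), Rpsa (−1.40), Slc16a1 (−4.74) and Slc7a5 (−3.85).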

How the results depend on the processing

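When the model held the compared groups alone, 11264 genes passed the filter and 2868 were called between 24 h and 1 h (1371 higher, 1497 lower). With the 6 CD69-low libraries thinned to 941304 counts 3127 were called (1419 higher, 1708 lower), and 139 had a lower change than in NP. DESeq2 called 1302 genes for the difference from NP (716 higher, 586 lower). The replicate block rests on title suffixes that look like plate wells, and the labels do not say what they mark. Deviations of CD69-low libraries taken as one round correlated at 0.23, 0.13 and 0.43 over 6557 genes, and those of different rounds at −0.35 to 0.20, so replicate 2 at 1 h was closer to replicate 1 at 24 h (0.16) than to its own number. The replicate block gave 5064 calls between the times (2271 higher, 2793 lower), 847 for the difference from NP (400 higher, 447 lower) and 8249 for the difference from CD69-hi, and among named genes it added calls for Cd74 (edgeR adjusted p = 0.00543) and Ighm (edgeR adjusted p = 0.0312) and ended none. The B cell covariate left 5235 genes for the difference from CD69-hi, 1903 of them higher. The cause of these shifts was not tested.

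Leaving out each library in turn gave 3787 to 4423 calls between the times (higher 1600 to 2115, lower 2187 to 2346), 342 to 682 for the difference from NP (higher 184 to 342, lower 158 to 340), the lowest without NP replicate 2 at 24 h, and 7351 to 7814 for the difference from CD69-hi (higher 3017 to 3560, lower 4031 to 4419). Without both replicate 3 libraries 3693, 598 and 7065 genes were called. No named gene that was called took the opposite sign in an alternative run. The named set had been shortened to genes whose calls were mostly stable. So neither this nor the lack of calls ended by the replicate block measures how stable the results are. Counts did turn: class II genes went from 4 lower and none higher to 3 higher and none lower without CD69-low replicate 3 at 1 h, and RLE factors moved the share of higher calls between the times from 47.0% to 61.4%. Depth limits low genes most: the 24 h libraries held 941304 to 2870776 counts, so that 3 counts over that group correspond to 0.489 CPM, against 0.204 CPM at 1 h.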
